A study of Homo sapiens with 2 samples.

Results

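The subject is 75 long noncoding RNA (lncRNA) genes with ribosome footprint counts in HEK293T cells, an easily transfected human embryonic kidney line. They are the genes of the lncRNA biotype in the deposited count table whose counts sum to 50 or more over both libraries. GAS5, ZFAS1 and genes named SNHG, which host snoRNAs, were left out. The table has 61554 rows, 17734 of them lncRNA genes, of which 4073 have a count and 90 reach 50. The summed count thus chose the members, so that their being well counted is no finding, whereas the ratio between the libraries was not used. Of the 75 members, 40 have no symbol in the table and are identified by their Ensembl number.

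There are 2 libraries, from 1 culture with the reporter plasmid pEGFP-mCherry-T2A-EGFP-151TCG and 1 culture without it. Both had the plasmid pCMV-Nes--chPylRSIPYE (TetRS), whose label goes on to name TetRS again and 12*(U6-CM15CGA), and TetBu was present in both. The labels give the genotype as WT, and cells were collected at 30 h from 15 cm dishes after 1 min in 0.1 mg/mL cycloheximide, which halts elongating ribosomes. The culture without the reporter carries the TetRS plasmid too. Which library lacked the reporter was taken from the sample titles, because the treatment label of that library has both words, with and without, before the plasmid's name, and the direction of every ratio rests on this reading. With 1 library a group there is no replicate check and no p-value, and each difference is one between these 2 libraries.

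A lncRNA is transcribed, and often spliced, like a messenger RNA but has no long open reading frame. Some stay in the nucleus, as MALAT1 and NEAT1 do, while others, such as NORAD, are cytoplasmic and can meet ribosomes. Footprinting digests RNA and sequences the fragments that survive, so that fragments of small structured RNAs, such as tRNAs and Y RNAs, can enter a library beside those that ribosomes protect. The per-gene counts used here do not say where in a gene a fragment lay.

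The libraries have 2519301 counts with the reporter, against 3151403 without. The 7 genes looked up as HEK293T markers were VIM, KRT8, KRT18, NEFL, NEFM, GAPDH and ACTB. All 7 have counts, 776 in sum with the reporter, against 647 without. GAPDH and ACTB are expressed in most cells, so this sum does not tell HEK293T cells from others. Markers of leukocytes sum to 5 counts with the reporter and 20 without it, those of fibroblasts to 17 with and 55 without, and those of hepatocytes and serum to 1 with and 28 without, with PTPRC and HBA1 at 0. The last 3 sums are lower with the reporter, and their part in the lncRNA counts was not tested.

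Among the 15 most counted members, 5 span a tRNA gene and the first spans a Y RNA gene. RefSeq lists 443 nuclear tRNA genes, and 24 of them lie in the spans of 14 members. For 3 of these a RefSeq sequence window covers the whole tRNA gene, and these 3 are printed because they show what a lncRNA row can hold. Sequences are from RefSeq, build GRCh38.p14. The capitals mark the letters GTTCNANNC, which match the B box, the inner promoter element that recruits RNA polymerase III to tRNA genes. Each is written on the strand where the motif was found.
TRR-ACG2-1, arginine, in LIMD1-AS1, chr3:45688999-45689071, minus strand: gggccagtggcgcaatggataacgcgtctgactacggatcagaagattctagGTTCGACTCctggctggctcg
TRT-TGT6-1, threonine, in LINC01962, chr5:181191687-181191758, minus strand: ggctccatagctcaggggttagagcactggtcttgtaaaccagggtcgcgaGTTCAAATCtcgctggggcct
TRN-GTT4-1, asparagine, at the edge of ENSG00000238142, chr1:16889677-16889750, plus strand: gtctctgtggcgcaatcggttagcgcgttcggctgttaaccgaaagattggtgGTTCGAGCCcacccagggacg

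All 3 sequences hold the motif, searched on both strands. Of the 35116 RefSeq promoter windows, which run from 250 bases before to 50 after a gene start, 7.48% hold it. The B box is a part of tRNA genes, so that a match in these 3 was given in advance. The windows are longer than the printed genes, so their share is no background for the 3. A match is a description of letters. LIMD1-AS1 and LINC01962 are on the minus strand, as their printed tRNA genes are. ENSG00000238142 is on the minus strand and its tRNA gene on the plus strand. The sources used here do not say whether counting used strand, and without strand, reads of a gene and of an overlapping gene on the other strand cannot be told apart.

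The first member by counts was ENSG00000286171, with 32016 counts with the reporter, against 31142 without. It lies on chromosome 7 at 148941483 to 148941638 and is 156 bases long. RefSeq places RNY5, a small RNA that binds the Ro60 protein, at 148941488 to 148941571 within it, starting 5 bases from its start. The count table has rows for RNY1, RNY3 and RNY4, the other human Y RNAs. RNY1 had 51895 counts with the reporter, against 55441 without, RNY4 had 125 with the reporter and 147 without, and RNY3 had 0 with the reporter and 5 without. The Y RNA rows thus differ widely, and what share of the counts of ENSG00000286171 comes from RNY5 was not tested. Ratios are given as log2 of the count with over that without the reporter, after TMM scaling, which sets the bulk of the genes of both libraries equal. For ENSG00000286171 the log2 ratio was -0.09, with an exact 95% counting interval of -0.11 to -0.07. Under scaling to total counts, which raises every log2 ratio by 0.46, it was 0.36, so that its direction rests on the scaling. For RNY1 the log2 ratio was -0.23 (-0.24 to -0.21). Intervals here cover counting error only, and PCR copies are not independent molecules.

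This locus made most of the members' share of each library. The 75 members held 43702 counts with the reporter, or 1.73% of the library (exact interval 1.72 to 1.75%). Without the reporter they held 41524, or 1.32% (1.31 to 1.33%). ENSG00000286171 made 72.8 to 73.7% of the members' counts with the reporter, against 74.6 to 75.4% (exact interval) without. The other 74 members held 0.464% of the library with the reporter (0.456 to 0.472%) and 0.329% without it (0.323 to 0.336%). With mitochondrial rRNA, miRNA genes and plasmid rows left out of the total, the share of the 75 was 5.64% with the reporter and 5.91% without it, so that the order of the libraries depends on the denominator. Over all members the median summed count was 118. Of them 5 reached 1000, 38 others reached 100, and 32 did not.

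**Figure D1:**
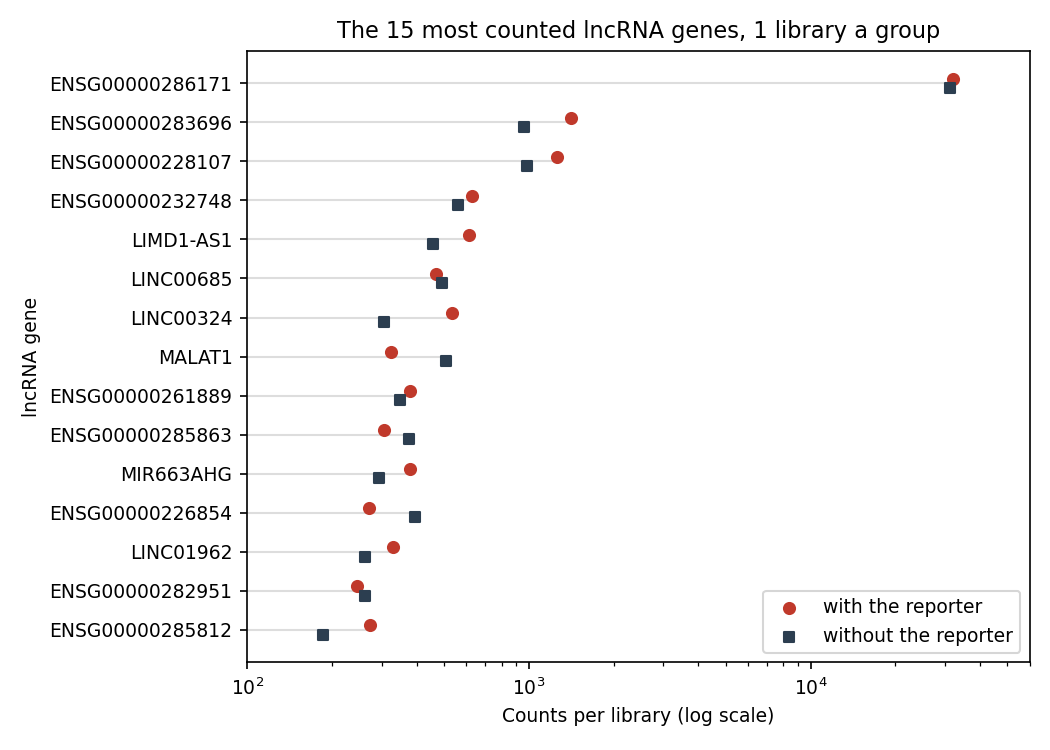
Counts of the 15 most counted members, with the reporter (red circles) and without it (dark squares), on a log axis; each point is 1 library. ENSG00000286171, which contains RNY5, stands at 32016 counts with the reporter and 31142 without, and the next, ENSG00000283696, at 1414 with it and 961 without.

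Next came, among others, loci with tRNA genes. ENSG00000283696 (chromosome 1, 161399409 to 161422424) had 1414 counts with the reporter, against 961 without, a log2 ratio of 0.42 (0.31 to 0.54). It is listed with 997 bases over a span of 23016, and TRV-CAC1-1 and TRE-TTC4-2, a valine and a glutamate tRNA gene, lie near its ends. LIMD1-AS1, on the strand opposite to LIMD1, had 614 counts with the reporter, against 456 without (0.30, 0.12 to 0.48). Its arginine tRNA gene, printed above, starts 129 bases into it. LINC00324 (chromosome 17, 8220624 to 8224043) had 533 counts with the reporter, against 307 without (0.66, 0.46 to 0.87). It holds 4 tRNA genes, for tryptophan, glycine, aspartate and proline. All 3 were more counted with the reporter, by less than 2-fold.

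ENSG00000261889 (chromosome 16, 3156736 to 3157483) had 377 counts with the reporter, against 350 without (-0.02, -0.24 to 0.19). Its lysine tRNA gene, TRK-CTT3-1, starts 6 bases from its start. LINC01962 (chromosome 5) had 330 counts with the reporter and 263 without (0.20, -0.04 to 0.43) and holds 4 tRNA genes, including the threonine gene printed above. LINC02739 (chromosome 11), with the lysine gene TRK-TTT3-4, had 195 counts with the reporter, against 149 without. POLG-DT, transcribed divergently from the gene of the mitochondrial DNA polymerase, had 105 counts with the reporter, against 81 without. Its arginine gene TRR-TCG1-1 starts 20 bases into it. LINC01138 (chromosome 1) had 32 counts with the reporter, against 33 without, and spans 2 tRNA genes. For these 5 members the counting interval of the ratio included 0.

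**Figure D2:**
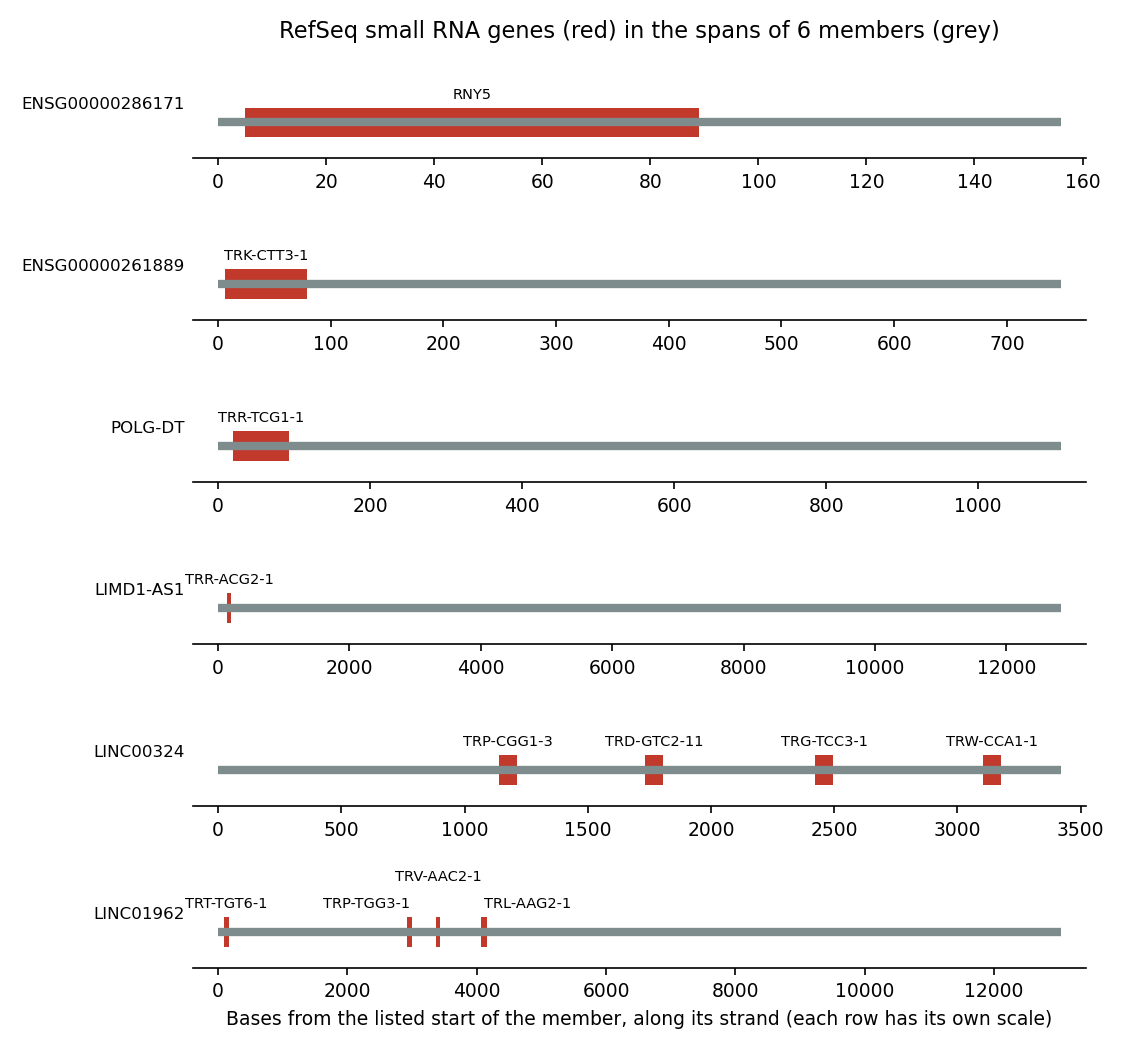
Position of RefSeq small RNA genes (red) along the span of 6 members (grey), in bases from the listed start along the member's strand; each row has its own scale. The 6 were picked after their values were seen, to show both kinds of position, and LINC00324 holds 4 spread over its length. Over all 16 members with such a gene, the nearest one starts within 200 bases of the listed start in 7 and farther off in 9, by up to 190721 bases.

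The other 6 members with tRNA genes were named after their values were seen. ENSG00000253190 had 166 counts with the reporter, against 155 without. ENSG00000260464 had 100 with the reporter and 123 without (-0.43, -0.83 to -0.04), and among these 6 only its interval excluded 0. ENSG00000238142 had 92 with the reporter and 68 without, and ENSG00000261584 had 54 with the reporter and 48 without. ENSG00000260035 and ENSG00000259932 are neighbours on chromosome 15, each with a histidine tRNA gene, with 145 and 34 counts with the reporter, against 109 and 20 without. Copies of a tRNA gene can be identical, so the counts of any single locus are uncertain.

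Over all 14 members with tRNA genes, counts summed to 4191 with the reporter, against 3123 without. This was 9.59% of the members' counts with the reporter, against 7.52% without. After scaling, 10 of the 14 log2 ratios were above 0, as were 1589 of the 2821 protein-coding genes with 50 or more counts. The ratios of the 14 ran from -0.43 to 0.66 with a median of 0.25, beside a median of 0.09 over those coding genes. None of the 14 was at least 2-fold higher or lower with an interval excluding 0, a rule that took 5.03% of those coding genes as higher and 3.3% as lower. Most of the 14 have 100 or more counts, and among the 1060 coding genes with as many, 30 were higher and 6 lower. The lack of calls among 14 members is thus no trait of theirs. The 24 tRNA genes stand for 15 amino acids by their names, and 0 of them are among the 26 serine tRNA genes that RefSeq lists.

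In 7 of the 14 the listed length equals the span, so the tRNA gene lies within the counted stretch (in ENSG00000238142 only in part). In the other 7 the table does not show whether an exon covers it. The part of tRNA fragments in these counts was not tested, because positions within genes are not in the table.

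Loci with a tRNA gene were rare among lncRNA genes and common among the members. Of all 17734 lncRNA rows, 54 span a RefSeq nuclear tRNA gene, or 0.304%, against 18.7% of the members. Of the 54, 14 reached 50 counts (25.9%), whereas 76 of the 17680 others did (0.430%). The median summed count was 3.5 in the 54 and 0 in the others. The 54 are longer, with a median listed length of 1886 bases against 986 and a median span of 13156.5 bases against 5945.5, and the part of length and span in these shares was not tested. Among rows over 500 and up to 1000 bases, 3 of 11 with a tRNA gene reached 50 counts, and 15 of 5446 without did. Among rows over 5000 bases these numbers were 1 of 7 and 26 of 1244. This is a description across loci that share libraries and, for tRNA copies, sequence, and no test was made.

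**Figure D3:**
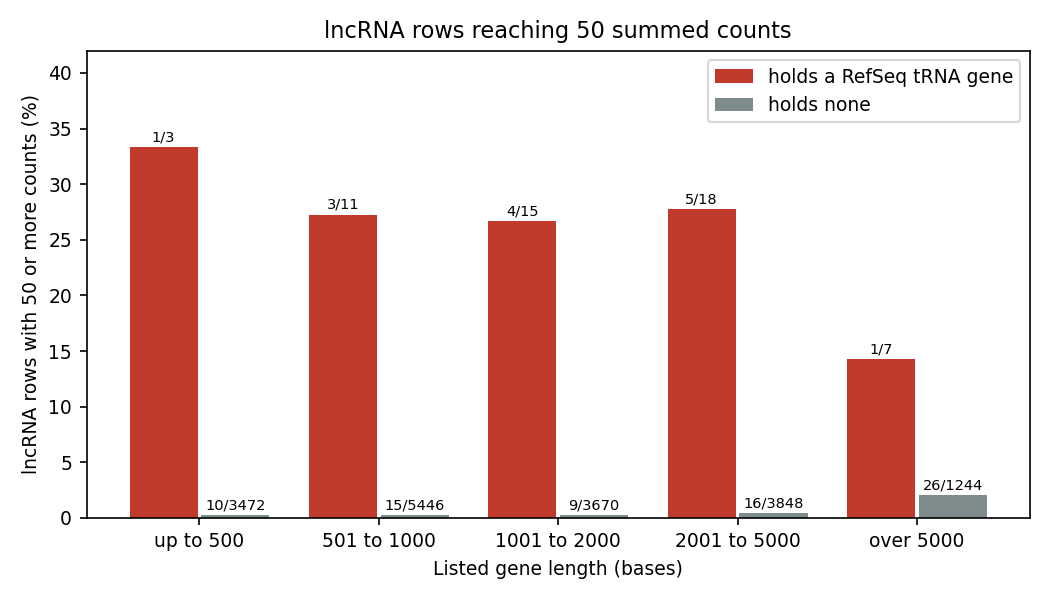
Percent of lncRNA rows with 50 or more summed counts, by listed length, for rows that span a RefSeq nuclear tRNA gene (red) and rows that span none (grey); the numbers over the bars give rows reaching 50 out of all rows. The red bars lie between 1 of 7 and 1 of 3 rows, while the grey bars reach at most 26 of 1244.

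ENSG00000287001, named after its value was seen, spans 5 genes of snaR, small RNAs known to bind the protein NF90 (chromosome 19, 50121430 to 50148302). Its counts were 263 with the reporter, against 126 without, a log2 ratio of 0.93 (0.62 to 1.25). This was the highest ratio among members with 100 or more counts, just under 2-fold, and with DESeq2 size factors it was just over 2-fold, at 1.01. ENSG00000287001 is listed with 1112 bases over a span of 26873, and the sources used here do not show whether an exon covers a snaR gene. What part of its counts comes from snaR was not tested. The snaR genes are near-identical copies, so that any reads of them may be shared among the copies.

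Of the other most counted members, several hold no small RNA gene known to the tables. ENSG00000228107 (chromosome 21) had 1257 counts with the reporter, against 981 without (0.23, 0.10 to 0.35). It lies on the strand of MORC3, a coding gene with 16 counts with the reporter and 18 without. ENSG00000232748 (chromosome 16), opposite to the coding gene ZNF668, had 630 counts with the reporter, against 560 without (0.04, -0.13 to 0.20). LINC00685 on chromosome X had 467 with the reporter and 493 without (-0.21, -0.40 to -0.02), and its ratio turned to 0.24 under total counts. What these reads derive from was not tested.

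ENSG00000285863 (chromosome 15) had 306 counts with the reporter, against 375 without (-0.43, -0.65 to -0.20). ENSG00000226854 (chromosome X) had 271 with the reporter and 395 without (-0.68, -0.90 to -0.45). ENSG00000282951 had 245 with the reporter and 263 without, and ENSG00000285812 had 272 with the reporter and 186 without (0.42, 0.14 to 0.69). The 4 did not share a direction, and under total counts ENSG00000285863 and ENSG00000282951 were at 0.03 and 0.22. MIR663AHG, the host gene of miR-663a, had 380 counts with the reporter, against 293 without (0.24, 0.02 to 0.47), while the row of MIR663A itself was at 0 in both libraries.

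Per length, the order was headed by short genes. By the deposited RPKM, the level per kilobase, ENSG00000286171 was at 71422 with the reporter, against 72251 without. The next RPKM values were those of ENSG00000228107, 734 with and 596 without, ENSG00000283696, 494 with and 349 without, LINC00685, 380 with and 417 without, and ENSG00000285863, 181 with and 230 without. These 5 were the highest in both libraries, and LINC00685 and ENSG00000283696 changed places between them. The median RPKM of the members was 14.9 with the reporter and 16.0 without it. For coding genes with 50 or more counts it was 2.82 with the reporter and 2.55 without it. Members are shorter, with a median length of 1766 bases against 5976, and a count minimum admits a short gene only at a higher level per length. The medians are therefore no sign of denser footprints.

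LncRNAs known to be mainly nuclear were counted in both libraries. MALAT1, a lncRNA of nuclear speckles (chromosome 11, 65497688 to 65506516), had 324 counts with the reporter, against 507 without. Its level was lower with the reporter, with a log2 ratio of -0.78 (-0.98 to -0.57), and -0.32 under total counts. NEAT1, the scaffold of paraspeckles and its neighbour on chromosome 11, had 97 counts with the reporter and 90 without (-0.02, -0.45 to 0.41). FTX, from the X-inactivation centre, had 23 counts with the reporter, against 40 without (-0.93, -1.74 to -0.16). Of the 18 lncRNA rows of this list, 3 are members. TUG1, also on the list, is classed as protein coding in the table, with 33 counts with the reporter and 30 without. The list leaves out XIST, a member known to be nuclear, which was named after its values were seen. XIST had 212 counts with the reporter and 189 without (0.03, -0.26 to 0.32).

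Per kilobase MALAT1 was the highest of the 3 members on the list, with an RPKM of 12.8 with the reporter and 20.8 without it. The RPKM of NEAT1 was 1.48 with the reporter and 1.43 without it, and that of FTX 0.192 with and 0.347 without. The rows nested in MALAT1 and NEAT1 on the same strand, MIR612 in NEAT1 among them, were at 0 in both libraries. Over all members, 27 small RNA rows lie within 13 members on the same strand, and 23 of them were at 0. A count of 0 allows up to 3 counts.

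Of the 4 nested rows with counts, MIR374A lies in FTX. MIR374A had 90 counts with the reporter, against 320 without, a log2 ratio of -1.96 (-2.32 to -1.62). The ratios of host and miRNA row were thus both below 0, and the difference between them was not tested. LINC01138 spans RNVU1-1, a variant U1 snRNA gene with 142 counts with the reporter, against 145 without. Of the 32 miRNA host lncRNAs looked up, 30 are in the table, 24 have a count, and FTX and LINC01138 are the 2 members. MIR17HG, the host of the miR-17-92 cluster, had 18 counts with the reporter and 26 without and fell short of the minimum.

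The lncRNAs known in the cytoplasm that were looked up gave few counts. GAS5, ZFAS1 and the SNHG genes were not on that list. The 15 of them with 50 or more counts held 11924 counts with the reporter, against 9405 without. NORAD, a lncRNA with a part in genome stability, had 28 counts with the reporter, against 22 without (0.22, -0.64 to 1.09), the lowest sum a member can have. EPB41L4A-AS1, which hosts SNORA13, had 42 with the reporter and 33 without (0.22, -0.48 to 0.92), and the row of SNORA13 was at 0. PSMA3-AS1 had 31 with the reporter and 27 without (0.07, -0.72 to 0.87), and THAP9-AS1 had 33 with the reporter and 41 without (-0.45, -1.15 to 0.25). All 4 intervals include 0, so that the depth shows no difference for them. The cytoplasmic lncRNAs OIP5-AS1 and DANCR had 17 and 16 counts with the reporter, against 19 and 13 without, and are no members.

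Of 28 loci reported to encode a small protein, 20 are in the table under the symbols looked up and only EPB41L4A-AS1 is a member. LINC00467 had 28 counts with the reporter, against 18 without, and CRNDE had 7 with the reporter and 10 without. Of 10 structured RNAs that some annotations class as lncRNA, such as the RNA of telomerase (TERC), none is a member. The lncRNA rows of RMRP and TERC were at 0 in both libraries.

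LINC00632, on chromosome X, whose transcripts are the precursor of the circular RNA CDR1-AS, had 178 counts with the reporter, against 221 without (-0.44, -0.74 to -0.15). The table has a row for CDR1 on the opposite strand at 0, and the circular RNA has no row matched here. HELLPAR, a long unspliced transcript of chromosome 12, had 47 counts with the reporter and 71 without (-0.73, -1.29 to -0.18). PWRN1, from the Prader-Willi region of chromosome 15, had 70 with the reporter and 46 without (0.47, -0.08 to 1.04). ZSCAN16-AS1 had 200 with the reporter and 240 without (-0.40, -0.67 to -0.12). With total counts the log2 ratios of LINC00632 and ZSCAN16-AS1 were 0.01 and 0.06, so their direction rests on the scaling.

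Members on the strand of a coding gene had more counts per length than that gene. There are 15 such members, and in all 15 pairs the RPKM of the lncRNA exceeded that of the coding gene in both libraries. In 13 of the 15 the raw count was higher too. ENSG00000259797 had 48 counts with the reporter, against 95 without, and PRMT7, an arginine methyltransferase gene on its strand, had 23 with the reporter and 28 without. ENSG00000227535 had 50 with the reporter and 22 without, and HACE1 had 20 with the reporter and 11 without. THAP9-AS1, with its 33 counts with the reporter and 41 without, is an exception by counts, since SEC31A, a coat protein gene of vesicles that leave the ER, had 43 with the reporter and 56 without. The members were chosen by their counts and these coding genes were not, so the comparison favours the members.

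Between the libraries, 3 members were at least 2-fold higher with the reporter with an interval above 0, or 4%. Among the 2821 protein-coding genes with 50 or more counts the same rule took 5.03% as higher and 3.3% as lower. The members' 5 lower calls make 6.67%. Over all 3277 rows with 50 or more counts these shares were 5.19% and 4.97%. Under total counts 9 members were higher and 2 lower. All 3 higher calls and 4 of the 5 lower ones fell in the 32 members with fewer than 100 counts, and none of the calls has a replicate check.

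The highest ratio was that of LINC02256 on chromosome 15, with 57 counts with the reporter, against 16 without (1.70, 0.88 to 2.60). ASB16-AS1 (chromosome 17), on the other strand from ASB16, had 49 counts with the reporter, against 19 without (1.23, 0.44 to 2.08). ENSG00000227535 was at 1.05 (0.30 to 1.85). These 3 were counted as higher under all 4 scalings run. GNAO1-DT, divergent from the gene of a G protein alpha subunit, had 96 counts with the reporter, against 57 without (0.62, 0.13 to 1.12) and passed 2-fold only under total counts, at 1.08. TMEM161B-DT, at the edge of the minimum with 30 counts with the reporter and 20 without, was at 0.45 (-0.41 to 1.35).

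The lowest ratio was that of SLC12A2-DT, divergent from the gene of a sodium, potassium and chloride cotransporter. It had 16 counts with the reporter, against 50 without (-1.78, -2.69 to -0.94). LINC01337 (chromosome 5) had 16 with the reporter and 46 without (-1.66, -2.58 to -0.81). ENSG00000259797 was at -1.12 (-1.65 to -0.60). The other lower members, named after their values were seen, were ENSG00000254315, with 30 counts with the reporter and 56 without, and ENSG00000288983, with 18 with and 33 without. SLC12A2-DT and LINC01337 were counted as lower under all 4 scalings, ENSG00000259797 was not under total counts, and the remaining 2 were not under total counts or DESeq2 size factors. LINC01605 and LINC01153 were at -0.51 and -0.48 with intervals that include 0.

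As a group the members lay near the other genes. Their median log2 ratio was -0.02, beside 0.09 for coding genes and 0.04 for the 15 snoRNA host lncRNAs with 50 or more counts. Under every scaling the members' median lay 0.11 below that of coding genes, since a scaling moves both alike. Of the members, 36 had a ratio above 0 and 39 below it, 12 had an interval above 0 (16%) and 15 below it (20%). Among coding genes 17.4% had an interval above 0 and 10.5% below. The ratios had an SD of 0.59, where the median counting error of a member was 0.27, and for coding genes these were 0.59 and 0.32. With 1 library a group this spread cannot be divided between the reporter and differences from dish to dish.

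By what a locus holds in the deposited table, 13 members hold a small RNA row on their strand, with a median log2 ratio of 0.03. A further 12 overlap a coding gene on their strand, with a median of 0.01, and 50 do neither, with -0.03. With RefSeq tRNA, Y RNA and snaR genes added, a division made after the data were seen, the 16 members that hold such a gene had a median of 0.25. The remaining classes then were at 0.03 over 11 members, -0.18 over 10 and -0.16 over 38. The 59 members without such a gene had a median of -0.15, and 34 of them lay below 0. All 8 calls were among these 59, and 3 higher and 4 lower ones fell in members with 50 to 99 counts. Over all rows with 50 or more counts, 5.19% were higher and 4.97% lower. At such shares 16 members would give few calls whatever they hold. No test was made of this division.

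**Figure D4:**
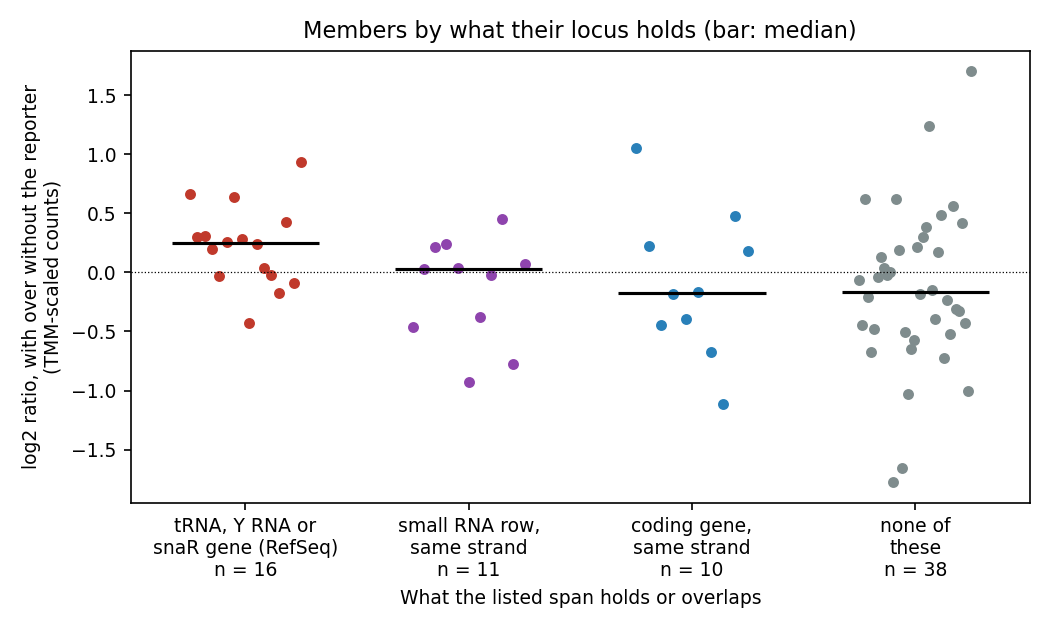
log2 ratio of the members, with over without the reporter, by what the listed span holds or overlaps; each point is 1 gene and the bar is the median of its class. The medians are 0.25, 0.03, -0.18 and -0.16, and the ranges of all 4 classes overlap.

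Genes of proteins that work with lncRNAs were looked up beside them. Of 22 genes of paraspeckles, speckles, lncRNA partners and nuclear RNA decay, 16 have 50 or more counts, and none was 2-fold higher or lower. Their median log2 ratio was -0.03. SFPQ, a paraspeckle protein that binds NEAT1, had 292 counts with the reporter, against 174 without (0.61, 0.34 to 0.89). NONO, its partner, had 182 with the reporter and 173 without (-0.06, -0.37 to 0.25). KHDRBS1, a partner of NORAD, had 64 with the reporter and 31 without (0.91, 0.27 to 1.58).

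Of the members not yet described, 7 were picked for mention after their values were seen. LINC01684 (chromosome 21) had 110 counts with the reporter, against 100 without. CBR3-AS1, on the strand opposite to the carbonyl reductase gene CBR3, had 164 with the reporter and 152 without, and CBR3 itself had 3 with the reporter and 0 without. PCBP1-AS1 had 31 with the reporter and 39 without, and PCBP1, the gene of an RNA-binding protein on the other strand, had 25 with the reporter and 17 without. RBMS3-AS2 had 68 with the reporter and 65 without, LINC00265 had 38 with the reporter and 34 without, and ZNF346-IT1, within the span of the zinc finger gene ZNF346, had 26 with the reporter and 27 without. ENSG00000278932 (chromosome 21) had 144 with the reporter and 94 without, a log2 ratio of 0.48 (0.10 to 0.87). In the other 6 the interval included 0. The members not named anywhere here had log2 ratios between -0.68 and 0.56, and all their intervals included 0. Over the chromosomes, members were most frequent on 1, with 10, then on 5 and 16 with 7 each.

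The boundary of the group is a matter of few counts. The members with the lowest sums are TMEM161B-DT and NORAD at 50 and ENSG00000224691 at 51. Just outside are LINC01355 at 49, with 27 counts with the reporter, against 22 without, and LINC00467 and FGD5-AS1 at 46 each.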

How the data were processed

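Gene counts, as deposited by the authors, are whole numbers per gene with no normalization. A second deposited table holds RPKM values of the same rows. Each equals the count over the listed gene length and a library size of 2873483 with the reporter and 2762965 without it. These sizes are 1.14 and 0.877 times the summed counts of the libraries. RPKM values thus carry a scaling between the libraries. TopHat2 2.0.12, HTSeq 0.9.1 and the builds GRCh37 and hg19 are listed, per the submitters' processing notes. Strand and multi-mapping settings are not stated there. The coordinates are nonetheless GRCh38, since 18973 of 18974 coding symbols overlap their RefSeq GRCh38.p14 locus. Of the members' symbols, 33 matched RefSeq, 32 of them in the same place.

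Counts were scaled with TMM in edgeR 4.0.16 (R 4.3.3), and log2 ratios have exact Clopper-Pearson intervals at 95% from scipy 1.17.1. A member was called at 2-fold with an interval excluding 0. On simulated counts for 3277 rows the rule called 44% of genes at 2-fold, 100% of those at 3-fold and 0.325% of unchanged ones. The simulated counts varied by counting error only, with the scaling known. The share of false calls between 2 real cultures is therefore not given by this simulation.

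The members, lists and tests were chosen with earlier results of these data known. Genes named were the 15 most counted, the 10 highest and 10 lowest with a symbol, the 5 highest by RPKM, those on fixed lists, the 3 nearest the minimum on each side and the extremes of each class. Other names are marked as chosen later. Also tried were size factors from DESeq2 1.42.0, scaling to total counts, TMM over coding rows, RPKM plus 0.1, and other thresholds and classes. RPKM plus 0.1 is no scaling apart from DESeq2: for ENSG00000286171 both gave a log2 ratio of -0.0167.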

Additional observations from a re-analysis of the deposited data

How the results depend on the processing

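Total counts shift every log2 ratio by 0.46 relative to TMM, and the median of the members then was 0.43, with 0.48 for members that hold a small RNA row and 0.43 for those that hold or overlap nothing. Under total counts 9 members were higher and 2 lower, against 549 and 22 of the coding genes. With DESeq2 size factors 4 members were higher, ENSG00000287001 (1.01) being added, and 3 were lower, since ENSG00000254315 (-0.96) and ENSG00000288983 (-0.93) lost their calls. Of the 2821 coding genes, 179 were higher and 75 lower with these size factors. With a threshold of 1.5-fold, 6 members were higher and 9 lower, and with 3-fold 1 and 2. No share of coding genes is given for these thresholds. Among the 43 members with 100 or more counts 0 were higher and 1 lower, and with the interval alone 9 lay above 0 and 10 below it. Of the 1060 coding genes with 100 or more counts, 30 were higher and 6 lower. With the interval alone 277 of these coding genes lay above 0 and 126 below it. The members' share was 5.64% with the reporter and 5.91% without it when mitochondrial rRNA, miRNA genes and plasmid rows were left out of the total, which turns the order of the libraries. Without the members that hold a tRNA, Y RNA or snaR gene, chosen after the data were seen, the share was 0.287% with the reporter and 0.226% without it, and leaving out the most counted member it was 0.464% with and 0.329% without. Of the 39 members that the naming rule chose, which those 3 are not among, all kept their side of the call under DESeq2 size factors and TMM over coding rows, while total counts brought 3 past 2-fold, ended 1 call (ENSG00000259797, at -0.66) and brought 8 others from below 0 to above it, outside their counting intervals. The 5 highest per length were the same from counts as from RPKM. This follows from how the RPKM values were made from the counts, so that it is no separate check. No paired analysis was possible because each group had 1 library, and none could be left out. Genes near 50 counts cannot show a change under about 2-fold at this depth.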
